A study of Homo sapiens with 6 samples.

Results

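The 32 genes described here make products that fold, inspect or dispose of proteins in the endoplasmic reticulum (ER), and were measured in 6 RNA-seq libraries of SZ95 cells, an immortalised human line from the sebaceous gland. They were taken by gene name from a table of 58735 genes, and all 32 were found. The 3 mock libraries came from SZ95 cells labelled WT that received a mock plasmid, and the 3 TRPV3 libraries from SZ95 cells that received a TRPV3-overexpression plasmid. All 6 libraries therefore share the cell line and a plasmid transfection, their titles give 24 h, and the design text calls the replicates biological. TRPV3 is a calcium-permeable cation channel of skin cells, and the design text names its part in sebocyte inflammation as the question. Levels are the deposited FPKM, which divide a gene's reads by its length and by a library factor, so they can be compared between genes per length.

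The ER receives secreted and membrane proteins as unfolded chains. Chaperones of the HSP70 and HSP90 families, the lectins calnexin and calreticulin and the disulfide isomerases fold them, and chains that fail are drawn back to the cytosol and degraded, a route called ER-associated degradation. When unfolded chains build up or ER calcium falls, the sensors ATF6, IRE1 (gene ERN1) and PERK (gene EIF2AK3) start the unfolded protein response, in which ATF6 and the transcription factor XBP1 induce many of the genes described here. Sebocytes make large amounts of lipid on ER membranes.

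TRPV3 was at 0.437, 0.359 and 0.415 FPKM in mock replicates 1 to 3 and at 536, 671 and 738 FPKM in TRPV3 replicates 1 to 3, as labelled (exact two-sided permutation test, p = 0.1, the smallest that 3 against 3 libraries can give). The libraries held 16.0 to 18.4 M reads. A pair of libraries stood apart, and the counts over the members are given with and without them. TRPV3 replicate 1 read short genes high and long genes low, and mock replicate 3 had reads in 34467 genes, against 22311 to 23072 in the other 5 libraries. Of 10 sebocyte markers 7 had a mean of at least 1 FPKM, led by KRT7 (513 ± 15.4 FPKM with mock, 552 ± 89.3 with TRPV3) and SCD (227 ± 22.4 and 219 ± 42.6; SD, n = 3 each), while MC5R and AWAT1 were among those under 1 FPKM. The sebocyte markers summed to 820 to 858 FPKM in mock cells and to 839 to 913 FPKM in TRPV3 cells. Markers of fibroblasts summed to 2.47 to 3 and 2.11 to 2.25 FPKM in the same order, those of melanocytes to 0.929 to 1.24 and 1.09 to 1.21, those of leukocytes to 1.48 to 1.80 and 1.04 to 1.80, and those of endothelium to 1.41 to 1.91 and 1.72 to 1.88 FPKM. Their most abundant genes were COL1A1 at 2.49 ± 0.249 and 2.09 ± 0.0652 FPKM, PMEL at 0.916 ± 0.158 and 1.04 ± 0.143 FPKM, CD14 at 1.56 ± 0.261 and 1.49 ± 0.426 FPKM and CDH5 at 1.19 ± 0.174 and 1.38 ± 0.0837 FPKM. PDGFRB, MLANA and KDR had group means of 0.0712 to 0.426 FPKM. The part of these markers in the results was not tested.

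With the TRPV3 plasmid the abundant chaperones HSPA5 and HSP90B1 and the degradation factor HERPUD1 were at 1.28 to 1.43 times their mock means. These 3 are named first because 1 fit, limma-voom without TRPV3 replicate 1, called them. MANF at 1.47 times and DNAJB9 and SDF2L1 at 1.33 times lay in or above that range. The measurable members other than the first 3 spread from 0.865 to 1.47 times. Of the 31 members with a mean of at least 1 FPKM, 0 passed limma with all 6 libraries after adjustment over 12177 genes (0.0411% of all genes passed as higher and 0% as lower). Before adjustment, 8 members were higher and 0 lower at a limma p under 0.05, where 3.28% and 1.21% of all genes were. All 3 TRPV3 libraries exceeded all 3 mock libraries in 12 of the 31 (38.7%), against 9.49% of all genes, and all 3 lay below in 1 (WFS1), against 5.39%. The median log2 fold change of FPKM + 1 was 0.07 over the 31 members and 0.01 over all genes, with 22 members above 0 (71.0%, against 53% of all genes). The count of 12 was 9 under TPM scaling and 8 under quantile normalization. The share of all genes was not counted under these scalings, so the 9.49% does not apply to them. The higher values stood in a subset of the members, and the median was close to 0.

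Without TRPV3 replicate 1 the median was again 0.07, 26 members were above 0 (53.7% of all genes), and 16 had both remaining TRPV3 libraries above every mock library (14.1% of all genes). Limma again called 0 (0.0657% of all genes), with 12 higher at an unadjusted p under 0.05 (4.51% of all genes). Limma-voom on whole reads recovered from the table called 3, HSPA5, HSP90B1 and HERPUD1, where it called 0.542% of all genes as higher. With all 6 libraries limma-voom called 0 of the 31 (0.0493% of all genes) and had 9 higher at an unadjusted p under 0.05 (2.96%). Without TRPV3 replicate 1 and mock replicate 3 together, limma called 0 (0.0739% of all genes), 10 were higher (4.62%) and 1 lower (3.13%) at an unadjusted p under 0.05, and the median was 0.05.

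Together the 32 genes summed to 1638, 1672 and 1610 FPKM in mock replicates 1 to 3 and to 2048, 1845 and 1807 FPKM in TRPV3 replicates 1 to 3. As a share of all reads they took 0.687%, 0.701% and 0.699% with mock and 0.773%, 0.761% and 0.752% with TRPV3. The groups did not overlap in either measure. HSPA5, CALR and HSP90B1 made up 40.3% to 40.9% of the FPKM sum in the mock libraries and 42.5% to 44.7% in the TRPV3 libraries. These 3 genes accounted for 60.5% of the 260-FPKM difference between the group means, HSPA5 alone for 28.9%. In bulk RNA a change per cell and a change in the share of cells cannot be told apart.

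**Figure D1:**
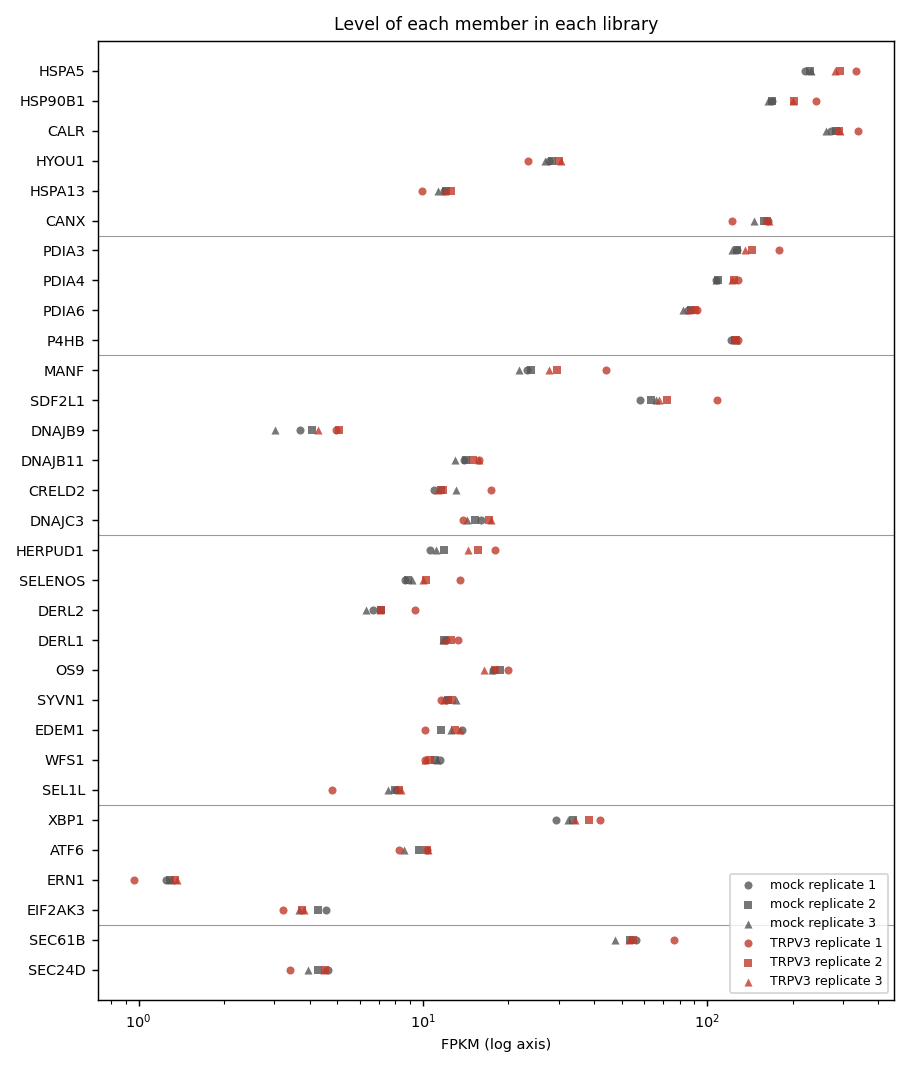
FPKM of each of the 31 measurable members in each library on a log axis, mock in grey and TRPV3 in red, with circles, squares and triangles for replicates 1 to 3 and lines between the role groups. TRPV3 replicate 1 (red circles) lies far to the right for MANF and SDF2L1 and far to the left for SEL1L and CANX. HSPA5, HSP90B1, HERPUD1, MANF and SDF2L1 are among the 12 members with all 3 TRPV3 libraries to the right of all mock libraries.

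Chaperones that bind unfolded chains were the most abundant members. HSPA5, the ER HSP70 known as BiP, which also holds the stress sensors inactive, was at 221, 229 and 232 FPKM in mock cells and at 333, 292 and 282 FPKM in TRPV3 cells. Its lowest TRPV3 library lay well clear of its highest mock library. The log2 fold change was 0.41 (SE 0.10; adjusted p = 0.652 by limma), 0.21 under quantile normalization, and 0.34 by limma-voom without TRPV3 replicate 1 (adjusted p = 0.00234). HSP90B1, the ER HSP90 known as GRP94, was at 168, 169.6 and 164 FPKM in mock cells and at 242, 201.5 and 200.5 FPKM in TRPV3 cells, again without overlap. The log2 fold change was 0.35 (SE 0.10; adjusted p = 0.755 by limma), 0.18 under quantile normalization, and 0.26 by limma-voom without TRPV3 replicate 1 (adjusted p = 0.0125). TRPV3 replicate 1 was the highest library for both genes, yet the other TRPV3 libraries also lay above the mock range.

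The lectin chaperones hold sugar-bearing chains, and neither passed limma or limma-voom. CALR, the soluble lectin calreticulin and a calcium store of the ER lumen, was at 272, 285 and 262 FPKM in mock cells and at 339.7, 291 and 292 FPKM in TRPV3 cells. The groups did not overlap, by a narrow margin for TRPV3 replicates 2 and 3, and the log2 fold change of 0.17 (SE 0.10) was 0.10 without TRPV3 replicate 1, 0.07 under TPM scaling and -0.03 under quantile normalization. CANX, its membrane-bound relative calnexin, was at 163, 158 and 146 FPKM in mock cells and at 123, 162 and 165 FPKM in TRPV3 cells. TRPV3 replicate 1 was the lowest of all 6 libraries there and the other TRPV3 libraries lay within or just above the mock range (log2 fold change -0.06, SE 0.13; 0.07 without that library). HYOU1, a large HSP70-like protein that exchanges nucleotide on HSPA5, was at 27.7 ± 0.799 FPKM in mock cells and at 28.0 ± 3.97 FPKM in TRPV3 cells (SD, n = 3 each). HSPA13, a less studied microsomal HSP70 relative, was at 11.7 ± 0.387 and 11.5 ± 1.40 FPKM. In both of these genes TRPV3 replicate 1 was the lowest library. Without it the log2 fold change of HYOU1 was 0.13 (SE 0.05; adjusted p = 0.657 by limma), against 0.01 with it. Both remaining TRPV3 libraries of HYOU1 then lay above every mock library. That of HSPA13 was 0.06 (SE 0.05), against -0.04.

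The promoters of several members hold the ER stress element (ERSE), the site that ATF6 and XBP1 are known to use. RefSeq promoters (GRCh38.p14, 250 bases before to 50 after the first listed start) were found for 28 of the 32 by symbol. A set of 3 motifs was searched on both strands: ERSE, which is CCAAT and CCACG with 9 bases between them, ERSE-II, which is ATTGG and CCACG with 1 base between them, and the UPR element TGACGTGG. ERSE was present in 6 of the 28 (21.4%) and in 22 of 27305 promoters of the table (0.0806%), and ERSE-II in 3 (10.7%) against 15 (0.0549%). The UPR element was in 1 (3.57%) against 217 (0.795%). At least 1 of the 3 motifs stood in 9 of the 28 (32.1%) and in 253 of all promoters (0.927%). The promoters of the 3 genes called by limma-voom without TRPV3 replicate 1 each hold one, and are shown with the motif in capitals, 5′ to 3′ on the strand of the gene. They lie at chr9:125241294-125241593 (minus strand) for HSPA5, chr12:103930160-103930459 (plus) for HSP90B1 and chr16:56931892-56932191 (plus) for HERPUD1.
HSPA5: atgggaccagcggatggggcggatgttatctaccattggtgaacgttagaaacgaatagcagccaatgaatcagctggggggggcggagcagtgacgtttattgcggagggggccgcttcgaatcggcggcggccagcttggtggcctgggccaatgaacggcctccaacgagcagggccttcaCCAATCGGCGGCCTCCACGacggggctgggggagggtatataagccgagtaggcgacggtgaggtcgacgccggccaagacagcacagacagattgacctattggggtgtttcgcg
HSP90B1: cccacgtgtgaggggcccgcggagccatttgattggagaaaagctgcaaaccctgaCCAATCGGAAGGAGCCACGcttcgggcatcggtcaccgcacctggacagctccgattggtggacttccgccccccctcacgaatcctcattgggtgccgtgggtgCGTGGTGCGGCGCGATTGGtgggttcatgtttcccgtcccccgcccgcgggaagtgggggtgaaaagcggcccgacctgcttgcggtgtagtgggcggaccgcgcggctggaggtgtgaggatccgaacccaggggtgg
HERPUD1: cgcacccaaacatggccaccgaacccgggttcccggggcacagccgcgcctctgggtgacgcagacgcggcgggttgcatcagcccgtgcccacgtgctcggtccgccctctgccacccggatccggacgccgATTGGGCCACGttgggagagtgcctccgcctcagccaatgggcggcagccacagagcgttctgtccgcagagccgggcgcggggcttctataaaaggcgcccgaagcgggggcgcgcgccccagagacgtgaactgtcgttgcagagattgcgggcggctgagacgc

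Counted from the start site, with bases before it negative, HSPA5 has its ERSE at -66 to -48, HSP90B1 has one at -194 to -176 and another, on the opposite strand, at -89 to -71, and HERPUD1 has an ERSE-II at -117 to -107. The sites of the other members with a match follow, each read on the strand that holds the motif, with the motif's fixed bases in capitals, so that their bases can be set beside those of HSPA5. All are ERSE except those of HYOU1 and SDF2L1, which are ERSE-II. HYOU1 holds the same ERSE-II letters at -185 to -175, which overlap its UPR element at -188 to -181, and at -79 to -69.
CALR: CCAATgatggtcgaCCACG
CANX: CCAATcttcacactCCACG
CRELD2: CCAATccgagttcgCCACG
XBP1: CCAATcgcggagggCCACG
HYOU1: ATTGGaCCACG
SDF2L1: ATTGGtCCACG

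The 9 members with a match had a median log2 fold change of 0.25, and the 19 tested members with a promoter and no match 0.03. Without TRPV3 replicate 1 the medians were 0.16 and 0.07. Across all 103 tested genes with a match, members included, the median was 0.03. The UPR element, held by HYOU1 alone of the members, was in 80 tested genes (median -0.000443). The 13 tested genes with an ERSE, 6 of them members, had a median of 0.14. The 11 with an ERSE-II, 3 of them members, had a median of 0.05. Presence of a motif did not go with a uniform value, since HSPA5 and CANX both hold an ERSE and lay at 0.41 and -0.06. These are matches of letters in a fixed window, given as a description with no test.

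Disulfide isomerases, which make and reshuffle disulfide bonds in the ER lumen, differed among themselves. PDIA4 was at 107.6, 109.5 and 107.8 FPKM in mock cells and at 127.9, 124.1 and 122.5 FPKM in TRPV3 cells. Its spread within each group was small beside the gap between them, and TRPV3 replicate 1 did not stand apart. The log2 fold change was 0.20 (SE 0.07; adjusted p = 0.755 by limma), or 0.19 without TRPV3 replicate 1, but 0.11 under TPM scaling and 0.03 under quantile normalization. PDIA3, which works with the lectin chaperones, was at 127, 127 and 123 FPKM in mock cells and at 178, 143 and 136 FPKM in TRPV3 cells. Here the gap came in large part from TRPV3 replicate 1, and the log2 fold change was 0.27 (SE 0.12) with it and 0.15 without it, and 0.105 under quantile normalization with all libraries. P4HB, the founding isomerase, was at 124 ± 2.25 and 127 ± 1.11 FPKM, and PDIA6 at 85.3 ± 2.75 and 89.6 ± 3.08 FPKM (SD, n = 3 each). Their log2 fold changes of 0.03 (SE 0.07) and 0.07 (SE 0.08) were no larger than their errors, and were -0.12 and -0.07 under quantile normalization and -0.07 and -0.03 under TPM scaling.

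Among the cochaperones and small folding factors, MANF had the largest log2 fold change of the members with all 6 libraries. Without TRPV3 replicate 1, HERPUD1 (0.39), HSPA5 (0.34) and DNAJB9 (0.31) exceeded MANF (0.30). HERPUD1 also exceeded it with the length trend removed (0.47 against 0.40) and under quantile normalization (0.44 against 0.43). MANF, a small ER protein that is secreted under ER stress, was at 23.3, 23.9 and 21.8 FPKM in mock cells and at 44.0, 29.5 and 27.8 FPKM in TRPV3 cells. TRPV3 replicate 1 was far above the other TRPV3 libraries, which still lay above all mock libraries. The log2 fold change of 0.51 (SE 0.17; adjusted p = 0.755 by limma) was 0.30 without TRPV3 replicate 1. SDF2L1, a partner of ER J-proteins, was at 58.2, 63.4 and 65.9 FPKM in mock cells and at 109, 72.4 and 67.5 FPKM in TRPV3 cells. The lowest TRPV3 library was just above the highest mock library, and the log2 fold change was 0.37 (SE 0.18), and 0.16 without TRPV3 replicate 1.

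DNAJB9, a J-protein that restrains IRE1, was the scarcest of the cochaperones at 3.69, 4.08 and 3.02 FPKM in mock cells and at 4.95, 5.08 and 4.29 FPKM in TRPV3 cells. The groups were separate, with a log2 fold change of 0.33 (SE 0.11; adjusted p = 0.755 by limma), and 0.31 without TRPV3 replicate 1. DNAJB11, a J-protein that passes unfolded chains to HSPA5, was at 14.0, 14.1 and 13.0 FPKM in mock cells and at 15.7, 14.97 and 15.8 FPKM in TRPV3 cells. TRPV3 replicate 1 lay between the other TRPV3 libraries, and the log2 fold change was 0.17 (SE 0.07), 0.16 without it and 0.08 under TPM scaling. DNAJC3, a J-protein also known as an inhibitor of PERK, was at 15.2 ± 0.839 and 16.1 ± 1.92 FPKM. CRELD2, a secreted ER stress protein, was at 11.8 ± 1.09 and 13.5 ± 3.39 FPKM (SD, n = 3 each). The log2 fold change of DNAJC3 was 0.07 with all libraries and 0.17 without TRPV3 replicate 1, and that of CRELD2 was 0.15 and -0.03.

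**Figure D2:**
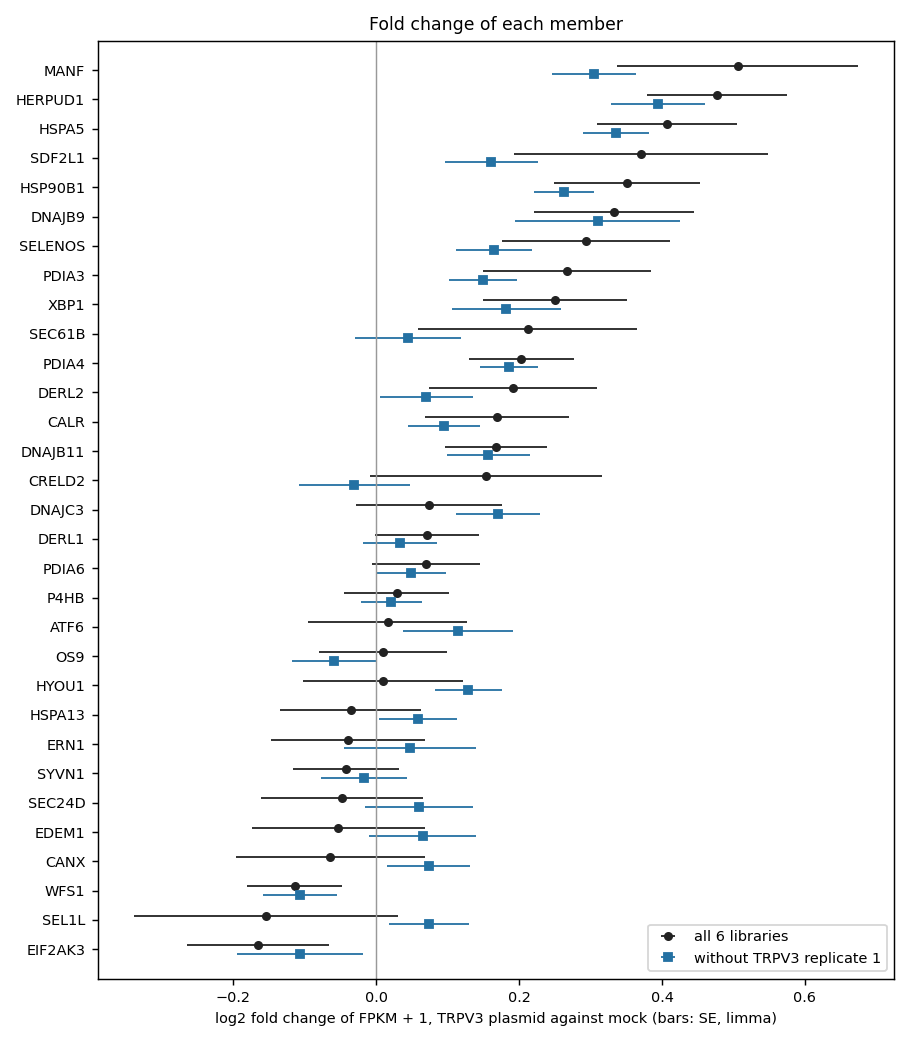
Fitted log2 fold change of FPKM + 1, TRPV3 plasmid against mock, for the 31 measurable members, with all 6 libraries (black circles) and without TRPV3 replicate 1 (blue squares). Bars are the limma standard error. MANF stands at 0.51 and 0.30, SEL1L at -0.15 and 0.07, HERPUD1 at 0.48 and 0.39 and PDIA4 at 0.20 and 0.19.

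ER-associated degradation was mixed, with HERPUD1 and SELENOS apart from the rest. HERPUD1, a membrane protein that gathers the degradation complex and a known early target of ER stress, was at 10.6, 11.9 and 11.1 FPKM in mock cells and at 18.0, 15.6 and 14.4 FPKM in TRPV3 cells. No library of one group came near the range of the other. It had the smallest adjusted p of all members (log2 fold change 0.48, SE 0.10; adjusted p = 0.462 by limma), and by limma-voom without TRPV3 replicate 1 the value was 0.43 (adjusted p = 0.0106). SELENOS, a selenoprotein that links the degradation machinery to the ATPase that extracts substrates, was at 8.68, 8.84 and 9.18 FPKM in mock cells and at 13.5, 10.2 and 9.97 FPKM in TRPV3 cells. The log2 fold change of 0.29 (SE 0.12; adjusted p = 0.755 by limma) was 0.17 without TRPV3 replicate 1.

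The ubiquitin ligase core of this route showed no such gap. SYVN1, the ligase known as HRD1, was at 12.4 ± 0.578 FPKM in mock cells and at 12.1 ± 0.562 FPKM in TRPV3 cells, and its partner SEL1L at 7.85 ± 0.274 and 7.14 ± 2.03 FPKM. SEL1L was at 4.80 FPKM in TRPV3 replicate 1 and at 8.25 and 8.37 FPKM in replicates 2 and 3, so that its log2 fold change of -0.15 (SE 0.18) was 0.07 without that library. The mannose-trimming factor EDEM1 was at 12.7 ± 1.09 and 12.2 ± 1.81 FPKM, and the sugar-binding receptor OS9 at 17.9 ± 0.629 and 18.1 ± 1.77 FPKM. The channel-forming derlins DERL1 and DERL2 were at 11.9 ± 0.105 and 12.6 ± 0.723 FPKM and at 6.70 ± 0.414 and 7.85 ± 1.34 FPKM (SD, n = 3 each), the latter with a log2 fold change of 0.19, or 0.07 without TRPV3 replicate 1. DERL3, a derlin of secretory tissues, had 1 read in mock replicate 2 and 0 in the other 5 libraries, and was not tested. A level of about 3 reads can still be read as 0 through counting error. WFS1, an ER membrane glycoprotein of calcium balance, was the member whose TRPV3 libraries all lay below the mock libraries, at 11.3 ± 0.233 and 10.3 ± 0.241 FPKM (log2 fold change -0.11, SE 0.07; adjusted p = 0.755 by limma).

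Transcripts of the 3 stress sensors had group means under 10 FPKM, and their groups overlapped. EIF2AK3, the kinase PERK, was at 4.17 ± 0.456 FPKM in mock cells and at 3.60 ± 0.322 FPKM in TRPV3 cells (log2 fold change -0.17, SE 0.10; -0.11 without TRPV3 replicate 1). ERN1, the kinase and RNase IRE1, was at 1.28 ± 0.0289 and 1.23 ± 0.226 FPKM, and ATF6 at 9.54 ± 0.865 and 9.68 ± 1.22 FPKM (SD, n = 3 each). Their log2 fold changes of -0.04 (SE 0.11) and 0.02 (SE 0.11) were 0.05 and 0.11 without TRPV3 replicate 1. XBP1, whose mRNA is spliced by IRE1 and whose gene is itself induced by ATF6, was at 29.4, 33.8 and 32.5 FPKM in mock cells and at 41.9, 38.4 and 34.2 FPKM in TRPV3 cells. Its highest mock library and lowest TRPV3 library were close, and the log2 fold change was 0.25 (SE 0.10; adjusted p = 0.755 by limma). A gene-level table does not separate spliced from unspliced XBP1 mRNA, and neither kinase activity nor ATF6 cleavage is read by RNA levels.

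The remaining members bring proteins in or send them on. SEC61B, a subunit of the translocation channel, was at 52.3 ± 4.48 FPKM in mock cells and at 61.4 ± 13.2 FPKM in TRPV3 cells, and SEC24D, a cargo-binding coat protein of vesicles that leave the ER, at 4.29 ± 0.347 and 4.14 ± 0.638 FPKM (SD, n = 3 each). Neither group pair was separate. SEC61B, 1190 bases long, stood at 76.7 FPKM in TRPV3 replicate 1, and SEC24D, 9920 bases long, at 3.41 FPKM, the highest and the lowest library of each. Leaving that library out gave SEC61B a log2 fold change of 0.04, against 0.21 with it.

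TRPV3 replicate 1 differed from its fellow replicates along gene length across the members. On the log2(FPKM + 1) scale the difference between TRPV3 replicate 1 and the mean of replicates 2 and 3 had a Pearson r of -0.71 with log2 gene length (Spearman rho -0.70, 31 members, all read from the same 3 libraries), and -0.35 (rho -0.53) over the 12177 genes. All of the 10 shortest members, up to 4101 bases, were higher in replicate 1, with a median difference of 0.22. Of the 10 longest, from 5731 bases, 7 were lower, with a median difference of -0.31. With a length trend removed from every library the members' median log2 fold change was 0.08, 12 had every TRPV3 library above every mock library (8.27% of all genes), and limma called 0 (0.0411% of all genes). HSPA5, HSP90B1, HERPUD1 and MANF then had log2 fold changes of 0.36, 0.33, 0.47 and 0.40.

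**Figure D3:**
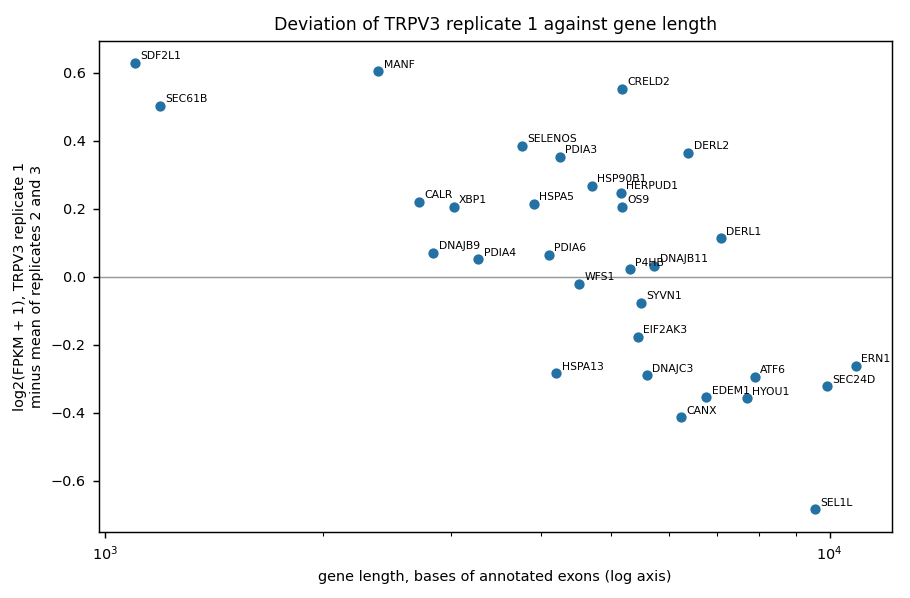
Difference in log2(FPKM + 1) between TRPV3 replicate 1 and the mean of TRPV3 replicates 2 and 3, against the length of annotated exons on a log axis, 1 point for each of the 31 measurable members. SDF2L1 (1099 bases) stands at 0.63 and SEL1L (9559 bases) at -0.68.

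Other genes of the ER and of related stress programmes were taken from lists that leave out the members. Of all genes, 9.49% were above and 5.39% below without overlap, and 14.1% and 10.1% without TRPV3 replicate 1. At an unadjusted limma p under 0.05, 3.28% of all genes were higher and 1.21% lower. Of 18 other folding enzymes, 0 passed limma, 3 had every TRPV3 library above every mock library and 1 had every one below, and the median log2 fold change was 0.04. The 2 most abundant lay on opposite sides, the glucosidase GANAB at 199.7 ± 4.20 FPKM in mock cells and at 180.3 ± 20.3 FPKM in TRPV3 cells, and the prolyl isomerase PPIB at 65.9 ± 5.38 and 83.0 ± 14.6 FPKM. Their log2 fold changes were -0.15 and 0.32 with all libraries and -0.06 and 0.18 without TRPV3 replicate 1. Of 19 other degradation genes 0 passed, 2 were above and 1 below without overlap, and the median was 0.03. VCP, the extracting ATPase, was at 77.0 ± 0.713 and 80.02 ± 2.85 FPKM, and AUP1, a lipid droplet and ER protein, at 56.2 ± 0.274 and 66.3 ± 10.7 FPKM (SD, n = 3 each; log2 fold change of AUP1 0.22, and 0.10 without TRPV3 replicate 1). VCP turned negative under TPM scaling and quantile normalization. At an unadjusted limma p under 0.05, 1 other folding enzyme was higher, and 0 of the degradation, translocon, export or transducer genes passed in either direction.

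Of 22 genes of the translocon, signal peptidase and N-glycosylation 0 passed, while 21 had a log2 fold change above 0 (53% of all genes), with a median of 0.08. Without TRPV3 replicate 1, 19 were above 0 (53.7% of all genes). Of the 22, 5 were above without overlap (22.7%, against 9.49% of all genes), and 11 without TRPV3 replicate 1 (50%, against 14.1%). RPN2 and DDOST, subunits of the oligosaccharyl transferase, were at 232 ± 3.19 and 240.4 ± 15.4 FPKM and at 144 ± 1.32 and 147 ± 4.90 FPKM. Both turned negative under TPM scaling, quantile normalization and removal of the length trend. Of 16 genes of vesicle export and KDEL retrieval 0 passed and 1 was above without overlap, with a median of 0.01 and 9 above 0, and without TRPV3 replicate 1 the median was 0.07 with 15 above 0. That 1 was SURF4, a cargo receptor, at 82.2 ± 1.74 and 86.6 ± 0.716 FPKM, and KDELR1, a retrieval receptor, was at 67.2 ± 1.53 and 71.0 ± 6.17 FPKM (SD, n = 3 each). Both turned negative under TPM scaling and quantile normalization, KDELR1 also with the length trend removed. The 6 measurable stress transducers outside the members had a median of -0.11 (-0.03 without TRPV3 replicate 1), with 1 above and 2 below without overlap and 0 passing limma. RTCB, the ligase that joins XBP1 mRNA after IRE1 cuts it, was at 51.1 ± 2.71 and 56.8 ± 9.41 FPKM, and CREB3, an ER-anchored transcription factor, at 19.8 ± 0.848 and 23.4 ± 3.90 FPKM. Leaving out TRPV3 replicate 1 gave log2 fold changes of 0.0082 for RTCB and 0.09 for CREB3, against 0.14 and 0.22 with it.

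The arm downstream of PERK, which acts through ATF4, was split. Of its 9 measurable genes 4 were above and 1 below without overlap (9.49% and 5.39% of all genes). Limma passed 0, with 4 higher and 1 lower at an unadjusted p under 0.05 (3.28% and 1.21% of all genes). The median of 0.15 was 0.04 without TRPV3 replicate 1, where limma-voom called 2 as higher (0.542% of all genes). These were PPP1R15A, a phosphatase subunit that restores translation, at 13.3 ± 1.35 and 19.9 ± 1.97 FPKM (adjusted p = 0.0101 by limma-voom without that library), and ATF3, a stress-induced transcription factor, at 1.93 ± 0.398 and 3.61 ± 0.387 FPKM (adjusted p = 0.00621). ATF4 itself was at 166 ± 6.75 and 186 ± 34.0 FPKM (log2 fold change 0.15, but 0.0051 without TRPV3 replicate 1 and -0.01 under quantile normalization) and DDIT4, an inhibitor of mTOR signalling, at 142 ± 10.9 and 134 ± 5.10 FPKM (SD, n = 3 each). Of 12 cytosolic heat shock genes 10 were above without overlap (9.49% of all genes). All 12 had a log2 fold change above 0, and 10 without TRPV3 replicate 1 (53% and 53.7% of all genes). HSP90AA1 and HSP90AB1 turned negative under quantile normalization, and HSP90AA1 under TPM scaling. The median was 0.22, or 0.15 without TRPV3 replicate 1. HSPA6, a heat-inducible HSP70 and the single gene of all these lists that passed limma with all 6 libraries, rose from 0.707 ± 0.0969 to 11.4 ± 1.13 FPKM (adjusted p = 7.11e-05 by limma). Without TRPV3 replicate 1, limma also called HSPA1B (adjusted p = 0.0336), and limma-voom called HSPA1B and HSPA1A (adjusted p = 0.00109 and 0.00234). These inducible HSP70 genes are near-identical copies whose reads could be split in counting, and were at 36.8 ± 0.600 and 50.2 ± 0.987 FPKM and at 64.9 ± 0.738 and 88.9 ± 7.82 FPKM. HSP90AB1 was at 546 ± 6.24 and 585 ± 35.4 FPKM, and HSP90AA1 at 412 ± 14.5 and 439 ± 16.6 FPKM. No difference between the members and these lists was tested.

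**Figure D4:**
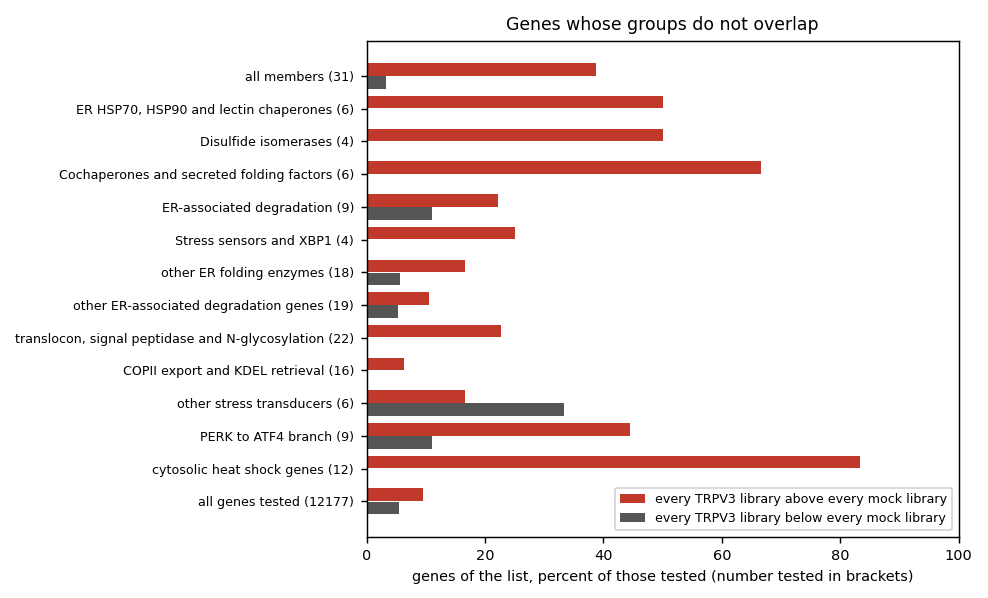
Percent of the tested genes of each list in which every TRPV3 library lies above (red) or below (grey) every mock library, with the number tested in brackets; the top bar is all measurable members, the next 5 are their role groups of at least 4 genes, and the lowest bar is all 12177 genes. The members stand at 38.7% above and 3.23% below, all genes at 9.49% and 5.39%.

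Some members share sequence with other genes, and no label names the counting tool or whether strand was used. DNAJB9 shares 183 exonic bases with THAP5 and 99 with PNPLA8, SYVN1 shares 398 with FAU on the same strand and 356 with MRPL49, and CRELD2 shares 168 with ALG12, each of which had reads in every library. DNAJB11 shares 381 exonic bases with TBCCD1, DERL1 shares 396 with TBC1D31, DERL2 shares 301 with MIS12, and DERL3 shares 2923 of its 3796 with SMARCB1, all on the opposite strand. Values of these members could hold or lack reads of their partners. PDIA3 has a pseudogene, PDIA3P1, with 334 to 455 reads, at most 3.88% of the reads of PDIA3. HSP90B1 shares 121 exonic bases with C12orf73 and 105 with TTC41P on the opposite strand, and 131 with MIR3652 on the same strand. Reads of each of these were at most 1.36% of those of HSP90B1. HSPA5 and HERPUD1 share no exonic base with another annotated gene.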

How the data were processed

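The authors deposited 1 table of FPKM per gene and library, with gene lengths, per the file headers. Reads were aligned with HISAT2 2.0.5 to hg38, per the submitters' processing notes, with the counting tool not given in the sources. The coordinates of all 32 members equal those of GENCODE 29. Columns were matched to samples by group and replicate number.

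Whole reads were recovered by dividing FPKM times length by the value of 1 read, and 100% of values came out whole (tolerance 0.02 reads). Depth was 16.0 to 18.4 M reads. A level of about 3 reads, which can still be read as 0, comes to 0.165 to 0.185 FPKM for a gene of 1 kb (counting error only). No library repeated another (chi-square over its degrees of freedom 2.42 to 48.8 within groups).

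The 12177 genes averaging 1 FPKM or more were tested on log2(FPKM + 1), which understates changes of low genes, with limma 3.58.1 in R 4.3.3, a variance trend and p-values adjusted over all of them by Benjamini-Hochberg (called at an adjusted p under 0.05). The test was tried on simulated data first. These had the same spread in every library and no length trend, so they cannot show how the test treats a library like TRPV3 replicate 1. Alternatives were another pseudocount, other filters, TPM and quantile scaling, removal of a length trend (lowess, span 0.3), a replicate block, no variance trend, each library left out and limma-voom; leaving out TRPV3 replicate 1 and mock replicate 3 together was chosen after the data were seen. Members, gene lists and alternatives were chosen with earlier results of these data known. All 32 members are named; values of every library are given for the 4 most abundant, those called in any of the limma or limma-voom fits, and the next 8 by limma p; other lists give genes called in any of those fits and the 2 of highest mean FPKM. Some marker genes are not reported here. A planned look at C-terminal retrieval signals was not run. Python 3.11.15 with matplotlib 3.10.9 made the figures. Nothing says the replicates were separate cultures beyond the word biological, so p-values measure the spread between these libraries.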

Additional observations from a re-analysis of the deposited data

How the results depend on the processing

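Of the 31 members, 14 kept the sign of their log2 fold change in every alternative run for them, and 17 changed it in at least 1. The cause was not tested. There were 17 alternatives, or 16 for DNAJB9, ERN1, EIF2AK3 and SEC24D, which the 5 FPKM filter leaves out. The other filters, the replicate block and the fit without a variance trend leave a gene's log2 fold change as it is. Those settings could not turn a sign. The members' median log2 fold change was -0.01738 under TPM scaling and 0.02954 under quantile normalization, and 0.06608 to 0.1106 with 1 library left out. The median over all genes was not taken under these scalings, so 0.01 does not apply to them. TPM scaling changes all genes of a library by 1 factor: HSPA5 went from 0.407 to 0.31 and P4HB from 0.0285 to -0.0684. With a filter of 5 FPKM the median was 0.1537. It was taken over the members that remain, whose own log2 fold changes did not move. The count with every TRPV3 library above every mock library, 12, was 9 under TPM scaling and 8 under quantile normalization. The share of all genes under these scalings was not counted. The count called was 0 except for 3 by limma-voom without TRPV3 replicate 1. The count with every TRPV3 library below every mock library was 1 to 2 with 1 library left out. Without TRPV3 replicate 1 it was 1 (3.23%, against 10.1% of all genes), and the share of all genes was not counted for the other libraries left out. It was 2 without TRPV3 replicate 1 and mock replicate 3 together (6.45%, against 18.9% of all genes), an alternative chosen after seeing the data. With a replicate block 0 members were called. The median stayed at 0.07354 by design, since each replicate number has 1 library in each group. Deviations of same-numbered libraries from their group means had r = -0.272, -0.0387 and -0.168. With 3 libraries a group and TRPV3 replicate 1 apart, these values cannot show whether same-numbered libraries shared a batch.

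Under TPM scaling the sign turned for HYOU1 (-0.0841), PDIA6 (-0.0268), P4HB (-0.0684), DNAJC3 (-0.0174), DERL1 (-0.0188), OS9 (-0.083), ATF6 (-0.0708), VCP (-0.0429), RPN2 (-0.0504), DDOST (-0.0668), SURF4 (-0.0225), KDELR1 (-0.0219), HSP90AA1 (-0.00403) and KRT7 (-0.00463). Under quantile normalization it turned for HYOU1 (-0.0554), CALR (-0.029), PDIA6 (-0.0695), P4HB (-0.116), OS9 (-0.0373), ERN1 (0.00173), VCP (-0.0801), RPN2 (-0.155), DDOST (-0.131), SURF4 (-0.0465), KDELR1 (-0.0474), ATF4 (-0.00941), HSP90AB1 (-0.174), HSP90AA1 (-0.141) and KRT7 (-0.113). With the length trend removed it turned for ERN1 (0.059), SEC24D (0.04), RPN2 (-0.0394), DDOST (-0.0603) and KDELR1 (-0.0375). By limma-voom without TRPV3 replicate 1 it turned for HSPA13 (0.0649), CANX (0.0744), CRELD2 (-0.0341), SEL1L (0.0835), EDEM1 (0.0688), OS9 (-0.0612), ERN1 (0.0828), SEC24D (0.0746), RPN2 (-0.00112), KRT7 (-0.0367) and SCD (0.106). Without TRPV3 replicate 1 and mock replicate 3 together it turned for HSPA13 (0.0338), CANX (0.0271), SEL1L (0.0481), SYVN1 (0.018), EDEM1 (0.0614), OS9 (-0.0743), ERN1 (0.0549), SEC61B (-0.0243), SEC24D (0.0133), KRT7 (-0.012) and SCD (0.0451).

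With each library left out in turn, the log2 fold change ranged from -0.0538 to 0.129 for HYOU1, -0.0993 to 0.059 for HSPA13, -0.139 to 0.0737 for CANX, -0.0306 to 0.262 for CRELD2, -0.273 to 0.0738 for SEL1L, -0.126 to 0.065 for EDEM1 and -0.0588 to 0.0748 for OS9. It ranged from -0.0872 to 0.0473 for ERN1, -0.0484 to 0.114 for ATF6, -0.106 to 0.0597 for SEC24D, -0.00105 to 0.0903 for RPN2, -0.0365 to 0.158 for KRT7, -0.156 to 0.105 for SCD and -0.14 to 0.101 for CD14. With 3 libraries a group, differences within these ranges were not resolved.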
